A study of Mus musculus with 20 samples.

Results

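The T-cell receptor loci and their flanks were examined in array comparative genomic hybridisation of 20 peritoneal mesotheliomas, tumours of the serous membrane of the abdomen, in mice. The regions were the beta locus on chromosome 6, the joint alpha and delta locus on chromosome 14 and the gamma locus on chromosome 13, each with flanks of 500 kb (positions of mouse build mm9 as the files give them). Members were all probes that are not controls and that lie in these regions, whatever their values. There were 439 such probes among 170305 in all, 168 inside the loci (61 beta, 94 alpha and delta, 13 gamma) and 271 in the flanks (83, 99 and 89). Every mouse had received crocidolite, an iron-containing amphibole asbestos, as 1.5 mg injected into the peritoneum at 6 and again at 7 weeks of age (a total of 3 mg), and was followed for 600 to 700 days. The groups were 7 wild-type tumours in separately labelled sets (WT_Dmt1, n = 4, and WT_plain, n = 3), 4 tumours of mice with a Dmt1 transgene (Dmt1Tg), and 3 tumours each of MutyhKO, Ogg1KO and Mth1KO mice. Dmt1 is an iron transporter, and Mutyh, Ogg1 and Mth1 act on oxidised guanine in DNA or in the nucleotide pool. The labels name no promoter for the transgene. They also leave unsaid whether tumours came from separate animals, and the p-values rest on the spread among these 20 samples, whatever its source. Tumour DNA was labelled with Cy5 and non-neoplastic kidney DNA, given as C57BL/6 and of the tumour's genotype, with Cy3. All values below are log2 of tumour over kidney, centred on the autosomal median of each array, unless a single channel is named.

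T-cell receptor genes are assembled during T-cell development from separate V, D and J segments, which lie in long arrays in front of the constant segments. The RAG recombinase cuts beside the segments at recombination signal sequences, and joining a distant V segment to a D or J segment usually removes the DNA between them from the chromosome. The beta and gamma chains pair with alpha and delta chains, and the delta segments lie inside the alpha locus, so that alpha joining removes them. Mesothelial cells and kidney epithelium do not carry out this recombination and keep the loci as in the germline, whereas mature T cells carry rearranged loci. In the mouse the beta locus also holds genes of trypsinogens, precursors of the pancreatic protease trypsin, and the alpha and delta locus begins among olfactory receptor genes.

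The probes are designed oligonucleotides, mostly of 60 bases, and their sequences are shown for the places on which the values turn. The first 9 are, for each locus, the last probe of the upstream flank, the probe nearest the middle of the lowest 50 kb tile with at least 3 probes, in the tumour with the lowest locus, and the first probe of the downstream flank. The files give each sequence without its strand relative to the genome.
beta, upstream flank, Moxd2 (chr6:40829054-40829113): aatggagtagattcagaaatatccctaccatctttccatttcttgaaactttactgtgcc
beta, lowest tile of at least 3 probes (chr6:41337408-41337467): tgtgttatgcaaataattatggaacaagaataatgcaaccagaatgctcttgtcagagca
beta, downstream flank, Ephb6 (chr6:41562588-41562647): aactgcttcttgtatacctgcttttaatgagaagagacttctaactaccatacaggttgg
alpha and delta, upstream flank, Sall2 (chr14:52943977-52944036): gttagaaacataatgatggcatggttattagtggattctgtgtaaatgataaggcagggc
alpha and delta, lowest tile of at least 3 probes (chr14:54720372-54720431): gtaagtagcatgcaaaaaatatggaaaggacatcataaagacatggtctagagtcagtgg
alpha and delta, downstream flank, Dad1 (chr14:54863051-54863110): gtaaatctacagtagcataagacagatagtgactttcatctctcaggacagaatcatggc
gamma, upstream flank, Amph (chr13:19241323-19241382): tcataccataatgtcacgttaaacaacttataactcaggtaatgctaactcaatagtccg
gamma, lowest tile of at least 3 probes (chr13:19434657-19434716): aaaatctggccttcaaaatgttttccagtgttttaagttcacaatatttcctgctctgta
gamma, downstream flank, Stard3nl (chr13:19457852-19457911): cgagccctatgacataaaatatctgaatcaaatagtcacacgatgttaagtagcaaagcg
The next 4 are the first and last probes of the low stretches of 1 tumour, MutyhKO 3, described below, and were chosen after their values were seen.
beta, first low probe (chr6:41079318-41079377): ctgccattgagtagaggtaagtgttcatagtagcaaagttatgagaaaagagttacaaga
beta, last low probe (chr6:41480645-41480704): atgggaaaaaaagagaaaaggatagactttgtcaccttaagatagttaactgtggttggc
alpha and delta, first low probe (chr14:54509873-54509932): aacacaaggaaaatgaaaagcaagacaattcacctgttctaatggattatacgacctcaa
alpha and delta, last low probe (chr14:54741428-54741487): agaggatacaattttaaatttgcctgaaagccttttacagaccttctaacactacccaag
All are in lower case because none holds the heptamer CACAGTG of the recombination signal, searched on both strands. That heptamer was in 0 of the 168 locus probes, in 1 of the 271 flank probes and in 0.829% of all probes, so these probes hardly sample such signals.

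The median spacing of the probes was 10.35 kb in the beta locus, 10.6 kb in alpha and delta and 10.9 kb in gamma, and the small number of gamma probes limits the precision there. The spread between neighbouring probes ran from 0.22 (MutyhKO 1) to 0.54 (WT_Dmt1 1) on the log2 scale, and MutyhKO 3 lay at 0.44. Spots in regional patches made up 7.69% of WT_plain 1 and 5.01% of WT_plain 2, and 0% of MutyhKO 3. In MutyhKO 3, 98.3% of spots were well above background in the tumour channel and 80.2% in the kidney channel. Mutyh itself, with 2 probes, was at -0.10, -0.57 and 0.21 in the MutyhKO tumours and from -0.96 to 0.56 in the other 17, which checks no label, because the kidney DNA shares the genotype.

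At the beta locus 1 tumour stood apart. MutyhKO 3 was at -0.67 (SE 0.10 over probes) for the locus against its flanks, which is 62.7% of the flank level, while the other 19 tumours ran from -0.16 (Ogg1KO 2) to 0.22 (WT_Dmt1 1) with a median of -0.06. The 4 WT_Dmt1 tumours were at 0.22, -0.06, -0.10 and -0.10, and the 3 WT_plain tumours at -0.13, -0.07 and -0.10. The Dmt1Tg tumours were at -0.07, -0.05, -0.05 and -0.06, the other MutyhKO tumours at -0.04 and 0.02, the Ogg1KO tumours at -0.10, -0.16 and -0.07, and the Mth1KO tumours at -0.04, -0.04 and 0.00. MutyhKO 3 thus lay below every other tumour, WT_Dmt1 1 lay above every other, and the remaining groups overlapped. Over all 20 tumours the locus was 0.08 below its flanks (SD 0.16, 17 of 20 tumours below 0, sign-flip permutation test, p = 0.00474, adjusted over the 3 loci 0.00711). All arrays read the same probes. At each of the 3 loci this test therefore cannot tell a difference in copy number from a probe offset common to the arrays. Without MutyhKO 3 the mean of the other 19 was -0.05 (SD 0.08). The call was lost with flanks of 250 kb (adjusted permutation p = 0.0575) and in the 8 tumours of scan day 1 taken alone (mean -0.03, adjusted exact permutation p = 0.445).

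**Figure D1:**
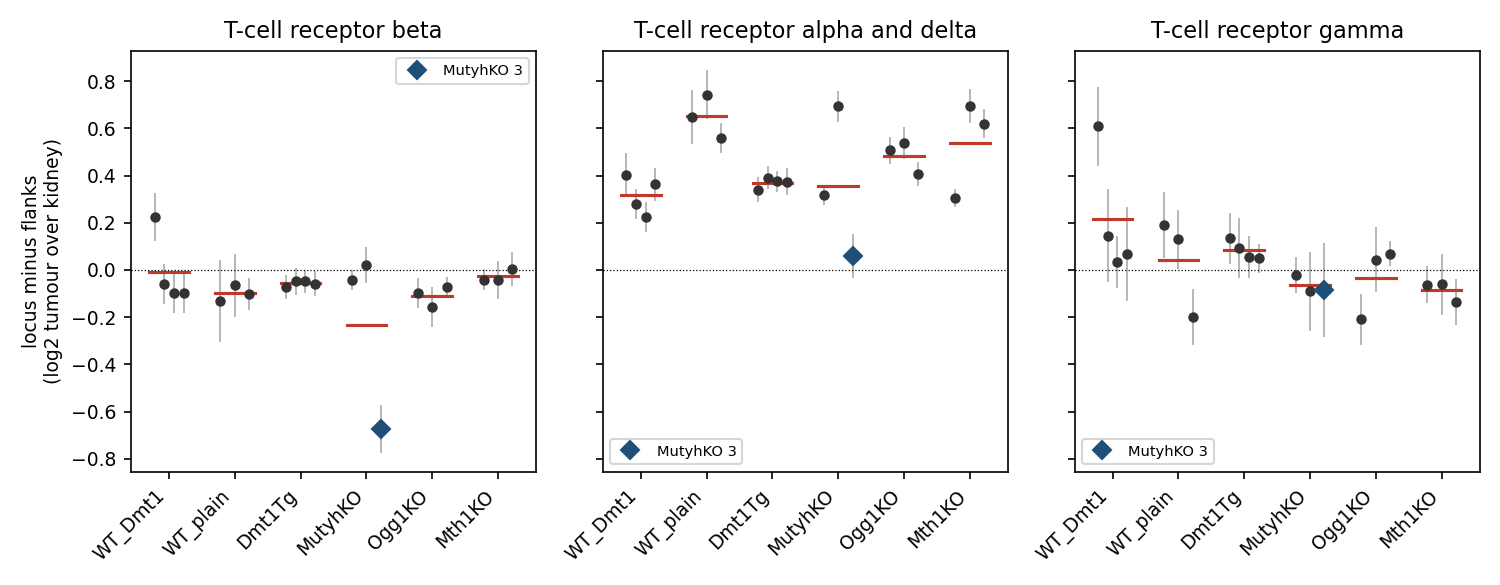
Locus mean minus flank mean (log2 tumour over kidney) for every tumour at the 3 T-cell receptor loci, by group; grey bars are the SE over probes, red lines the group means, and the diamond is MutyhKO 3. MutyhKO 3 is at -0.67 at beta and 0.06 at alpha and delta, below all 19 others at both, and within their range at gamma.

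Along the beta locus the low values of MutyhKO 3 formed 1 stretch of 401 kb with edges on both sides. Segmentation of the array placed 35 consecutive probes at a mean of -0.90 (SE 0.08), from 41079318 to 41480704 on chromosome 6, between neighbouring segments at -0.06 and 0.13. This made 35 of the 61 beta probes lost (segment level at or below -0.2), where 9.72% of the autosomal probes of that array were lost in the deposited ratios. In 50 kb tiles the level went from 0.10 (6 probes, 41004202 to 41047977) to -0.48 and -0.46 in the next tiles, then lay between -0.85 and -1.14 in 4 tiles up to 41338648. It was -1.73 in a tile of 2 probes, -0.92 and -0.52 after that, and back at -0.18 in the tile that starts at 41501161. Of the 35 probes, 34 were below the median of the other 19 tumours and 25 were the lowest of all 20. Against the flanks the stretch was at 47.1% of the flank level, a log2 difference of -1.09. The other 19 tumours ran from -0.15 (WT_Dmt1 4) to 0.26 (WT_Dmt1 1) over the same probes, with a median of -0.07. The stretch was chosen on the values of MutyhKO 3, so these values and counts are descriptions and carry no test. The counts have no share over all probes beside them.

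**Figure D2:**
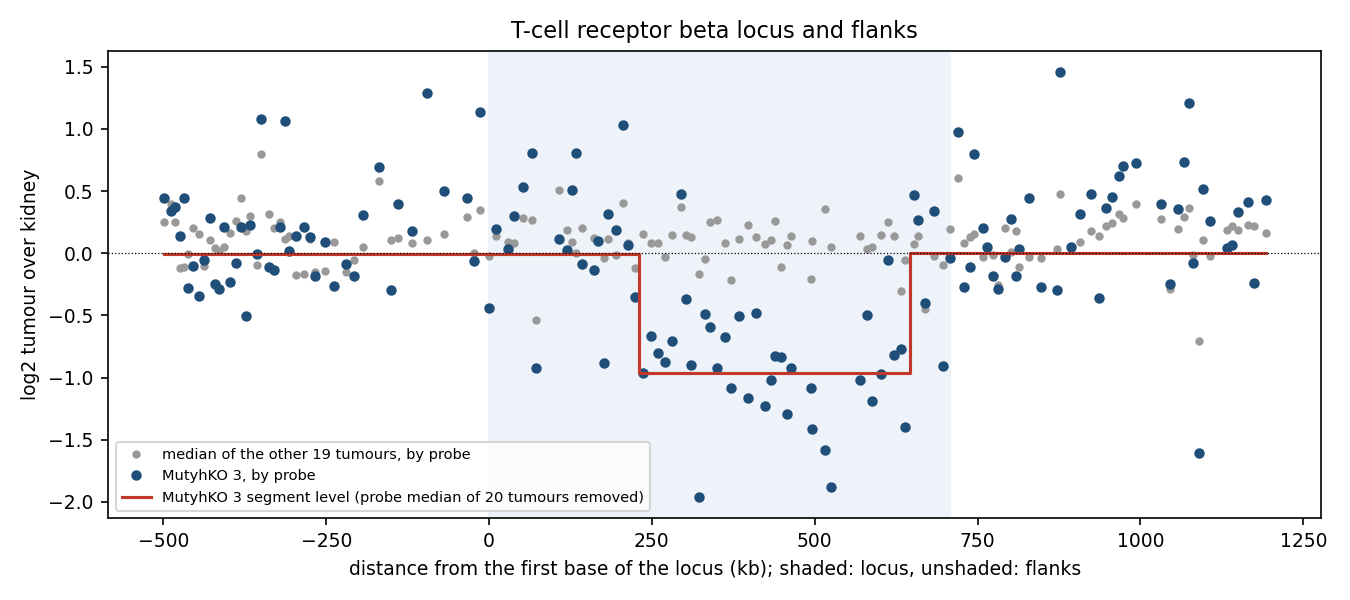
Log2 tumour over kidney by probe along the beta locus (shaded) and its flanks, in kb from the first base of the locus, for MutyhKO 3 (blue) and the median of the other 19 tumours (grey), with the segment level of MutyhKO 3 after the probe median of all 20 tumours was removed (red). The 35 probes of the low stretch lie around -0.90 in MutyhKO 3 and near 0 in the others.

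The gene order of the beta locus allowed the stretch to be set against its segments. In RefSeq (GRCm38.p6, used for names and order alone) Trbv1 and trypsinogen-like genes come first, then a run of 33 Trbv segments from Trbv2 to Trbv30 with Try4 and Try5 near its end. Then come trypsinogen genes from Try10 to Prss2, and last the D and J segments with both constant segments and Trbv31, which lies behind them in reverse orientation. In MutyhKO 3 the first block was at -0.03 against the flanks (12 probes), inside the range of the other 19 tumours (-0.33 to 0.37). The block of Trbv2 to Trbv30 was at -0.77 (30 probes), below their range of -0.18 to 0.15. The block of Try10 to Prss2 was at -1.20 (12 probes), 43.4% of the flank level, below their range of -0.33 to 0.58. The block of D, J and C segments was at -0.43 (7 probes), inside their range of -1.15 to -0.03, whose lowest value, from WT_plain 1, became -0.60 (Ogg1KO 2) once array patches were left out. The last low probe lies between Prss2 and the end of the locus, and the 6 locus probes behind it were at -0.23 in MutyhKO 3, inside the range of the others (-0.72 to 0.01). The 20 probes in front of the stretch were at -0.08, also inside their range (-0.14 to 0.25).

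**Figure D3:**
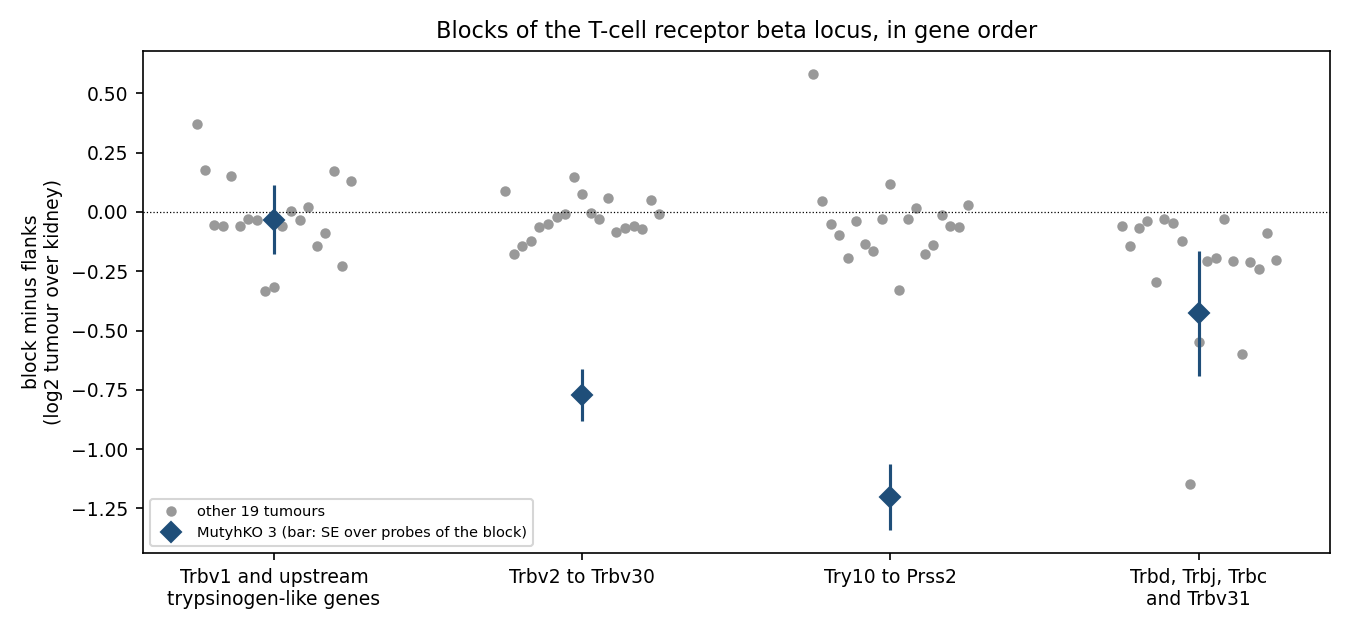
Block mean minus flank mean (log2 tumour over kidney) for 4 blocks of the beta locus in gene order, in MutyhKO 3 (diamond, bar: SE over probes) and the other 19 tumours (grey). MutyhKO 3 lies at -0.77 and -1.20 in the Trbv2 to Trbv30 and Try10 to Prss2 blocks, below all others, and among them in the first and last blocks.

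Single names in the beta locus followed the blocks. AK138971, a transcript name that the files give to 48 probes across most of the locus, was at -0.49 (SE 0.10) in MutyhKO 3 and at 0.11 ± 0.09 (SD, n = 19) in the others, which ran from -0.03 to 0.29. The trypsinogen genes have 1 probe each. Prss1 was at -1.02 in MutyhKO 3 against -0.26 to 1.22 in the others, and Try10 was at -0.92, where the lowest of the others was at -0.54. Gm5409, a trypsinogen-like gene between them, was at -1.88 against -0.92 to 1.91. These 3 did not overlap with the other tumours, a count without a share over all gene names beside it. Their probes lie inside the stretch chosen on the low values of MutyhKO 3, so they add no separate evidence. Prss2 was at -0.77 against -1.01 to 0.47 and did overlap. In front of the stretch, 1700074P13Rik was at 0.17 (2 probes; others -0.33 to 0.58), 2210010C04Rik at -0.09 (others -0.19 to 0.32) and 1810009J06Rik at -0.93 (others -2.50 to 0.28), all inside the range of the other tumours. The last name in the locus, AK137903, was at -0.04 (others -0.38 to 0.83).

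None of the named flank genes of the beta locus was below the range of the other tumours in MutyhKO 3. Upstream, Mgam, an intestinal enzyme that splits starch products, was at 0.08 over 8 probes (others -0.31 to 0.35), and the single probe of Moxd2, a monooxygenase-like gene, was at 1.13 (others -0.43 to 0.75). Downstream, Ephb6, an ephrin receptor without kinase activity, was at 0.97 (others -0.36 to 1.78), and Trpv6, an epithelial calcium channel, was at -0.19 over 2 probes (others -0.33 to 0.48). The Moxd2 value was the highest of all 20 tumours, and it rests on 1 probe.

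At the alpha and delta locus the same tumour was lowest. The locus was above its flanks in all 20 tumours, with a mean of 0.44 (SD 0.18, sign-flip permutation test, p = 2e-05, the smallest the 100000 permutations can give, adjusted 6e-05). The values ran from 0.06 (MutyhKO 3, SE 0.09) through a median of 0.40 to 0.74 (WT_plain 2), and the lowest of the other 19 was 0.22 (WT_Dmt1 3). The 4 WT_Dmt1 tumours were at 0.40, 0.28, 0.22 and 0.36, and the 3 WT_plain tumours at 0.65, 0.74 and 0.56. The Dmt1Tg tumours were at 0.34, 0.39, 0.38 and 0.37, the MutyhKO tumours at 0.32, 0.69 and 0.06, the Ogg1KO tumours at 0.51, 0.54 and 0.41, and the Mth1KO tumours at 0.30, 0.69 and 0.62. The WT_plain tumours lay above the WT_Dmt1 tumours without overlap, a difference between sets scanned on different days that cannot be told apart from the scan day or the slide. It lay in the flank means (-0.64 to -0.46 in WT_plain, -0.32 to -0.18 in WT_Dmt1), while the locus means of the sets overlapped. It was also not particular to this locus, as the immunoglobulin loci below show. No share over other regions of the genome stands beside it. The level of the locus was near that of the genome (mean 0.10), while the upstream flank averaged -0.29 and the downstream flank -0.40, below 0 in all 20 tumours. Beside these values, the kidney channel was lower in the locus than in the flanks in every tumour (mean -0.51, -0.83 to -0.29), and the tumour channel averaged -0.07, so the difference between locus and flanks sat mostly in the kidney channel. With normexp background correction the mean was 0.26, above 0 in 19 tumours, and MutyhKO 3 was below 0. The part of these channel levels in the result was not tested.

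Within the alpha and delta locus MutyhKO 3 was low over 232 kb. Segmentation placed 29 consecutive probes at a mean of -1.06 (SE 0.11), from 54509873 to 54741487 on chromosome 14, between segments at 0.02 and -0.33, the second of which reaches far into the low downstream flank. In 50 kb tiles the level was -0.29 before the stretch (5 probes, 54455511 to 54491723), then lay between -0.41 and -1.44 in 5 tiles. It then returned to 0.09 (4 probes, 54757640 to 54797503) and 0.21 (5 probes, 54810415 to 54843911) before Dad1. The second of these tiles was above all other tumours, whose highest value was 0.02. Of the 29 probes, 28 were below the median of the other tumours and 26 were the lowest of all 20. This stretch, too, was chosen on the values of MutyhKO 3. Its values and counts are thus descriptions, without a share over all probes beside them, and carry no test. The stretch was at -0.75 against the flanks in MutyhKO 3, and the other 19 tumours were all above 0 there, from 0.21 (WT_Dmt1 3) to 0.84 (WT_plain 2), with a median of 0.42. Set against the mean of those 19, the stretch was lower by a log2 difference of -1.21, 43.4% of their level. At beta the same figure was -1.04, or 48.7%. The 55 locus probes in front of the stretch were at 0.43 against the flanks (others 0.28 to 0.74) and the 10 probes behind it at 0.36 (others -0.03 to 0.57), both inside the range of the other tumours. The tiles at 54220039 to 54220986 and 54255706 to 54291286, with 2 and 3 probes, were also below all other tumours, at -0.48 and -0.44, and were not called.

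**Figure D4:**
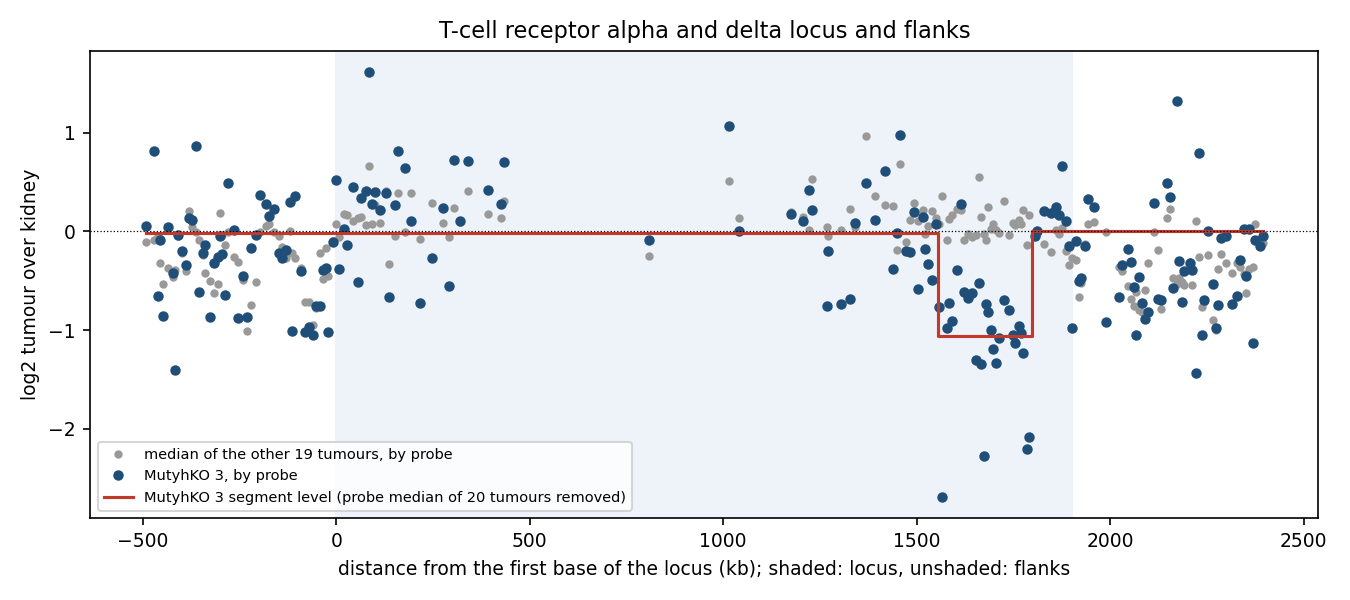
Log2 tumour over kidney by probe along the alpha and delta locus (shaded) and its flanks, in kb from the first base of the locus, for MutyhKO 3 (blue) and the median of the other 19 tumours (grey), with the segment level of MutyhKO 3 after the probe median of all 20 tumours was removed (red). The 29 probes of the low stretch lie around -1.06 in MutyhKO 3. The mean of the 10 locus probes behind them, against the flanks, lies inside the range of the other tumours.

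In RefSeq order the V segments of alpha and delta fill the front of this locus, followed by the delta D, J and constant segments, the Traj array and Trac, which lies next to Dad1. The files name few of these. AK131826, a transcript name given to 64 probes from 53759070 to 54837072, was at -0.46 (SE 0.09) in MutyhKO 3 and at 0.11 ± 0.07 (SD, n = 19) in the others (-0.03 to 0.25). AF012157, with 7 probes from 53243150 to 53385672, was at 0.34 in MutyhKO 3 (others -0.04 to 0.49), and Olfr1507, an olfactory receptor gene, was at 0.82 (1 probe; others -0.22 to 0.66). AK038798, in front of it, was at 0.45 (1 probe; others -3.18 to 0.77). The stretch was therefore not placed against single Traj or Trd segments here. In the flanks, Sall2, a zinc-finger transcription factor, was at -0.11 (others -0.54 to 0.28) and AK187920, with 1 probe, at -1.02, just below the lowest of the others. Dad1, a subunit of the enzyme that attaches glycans to new proteins, was at -0.30 (2 probes; others -1.92 to 0.04), and Abhd4, a lipid hydrolase, at -0.31 (2 probes; others -0.50 to -0.13). The genes behind the locus were thus below 0 in MutyhKO 3 and in most other tumours alike.

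Both stretches kept their edges after the shared profile was taken out. The median of each probe over the 20 tumours was subtracted, which removes what the tumours have in common, and segmentation then gave the same first and last probes, at -0.97 for beta and -1.06 for alpha and delta. With this profile removed, 64 autosomal probes of MutyhKO 3 were lost, 0.0396% of the autosomal probes, and all 64 lay in these 2 stretches (35 beta, 29 alpha and delta). No probe of the T-cell receptor loci was lost or gained in any of the other 19 tumours on this scale, where the lost share of the autosomes ran from 0 to 6.79% (WT_plain 2). In MutyhKO 3 the gained share was 0.0136%, with 0 of the gained probes in the loci. In the deposited ratios both calls held at thresholds of 0.1 and 0.3, and the beta call was lost at a segmentation penalty of 80. Normexp made both stretches shallower, at -0.65 against the flanks for beta and -0.47 for alpha and delta, and the alpha and delta stretch was then not called.

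The low values were in the tumour channel. At the beta stretch the tumour channel of MutyhKO 3 was at -1.27 against its flanks, where the other 19 ran from -0.51 (WT_Dmt1 4) to -0.09 (WT_Dmt1 1). The kidney channel was at -0.18, inside their range of -0.38 to -0.09. At the alpha and delta stretch the tumour channel was at -1.23 (others -0.15 to 0.46) and the kidney channel at -0.48, inside the range of -0.64 to -0.02. The samples are bulk DNA, so that a stretch absent from 1 chromosome copy in all cells and a stretch absent from both copies in some of the cells cannot be told apart, and each value is a mean over tumour and host cells.

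**Figure D5:**
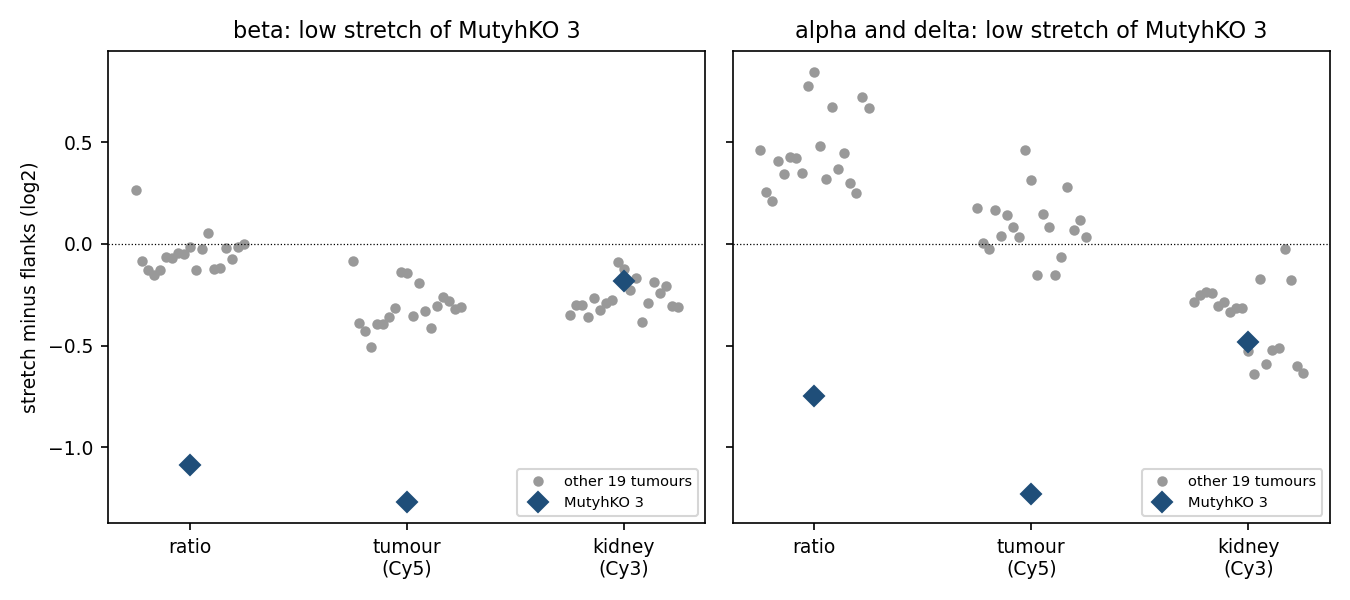
Mean of the low stretches of MutyhKO 3 minus flank mean, as the log2 ratio and in each channel, for MutyhKO 3 (diamond) and the other 19 tumours (grey), at beta (left) and at alpha and delta (right). MutyhKO 3 lies below all others in the ratio and the tumour channel, at -1.27 and -1.23, and among them in the kidney channel.

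No segment of the gamma locus was called in any tumour. The locus was at 0.04 against its flanks over the 20 tumours (SD 0.18, 12 above and 8 below 0, sign-flip permutation test, p = 0.384), from -0.21 (Ogg1KO 1) to 0.61 (WT_Dmt1 1) with a median of 0.05. MutyhKO 3 was at -0.08 (SE 0.20), inside the range of the others. The 4 WT_Dmt1 tumours were at 0.61, 0.15, 0.03 and 0.07, the WT_plain tumours at 0.19, 0.13 and -0.20, and the Dmt1Tg tumours at 0.13, 0.09, 0.05 and 0.05. The other MutyhKO tumours were at -0.02 and -0.09, the Ogg1KO tumours at -0.21, 0.04 and 0.07, and the Mth1KO tumours at -0.06, -0.06 and -0.13. The mean turned to -0.13 with normexp (adjusted permutation p = 0.00124) and to -0.06 over probes with kidney signal above background on every array. By scan day it was 0.15 in the 8 tumours of day 1 (8 of 8 above 0, adjusted exact permutation p = 0.0117) and -0.04 in the 12 of day 2 (adjusted permutation p = 0.338). WT_Dmt1 1, the array with the widest probe spread, gave the highest value, and without it the mean was 0.01.

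The named stretches of the gamma locus have 2 probes each. In MutyhKO 3, AK040028 was at 0.26 (others -0.18 to 0.31), X04699 at -0.39 (SE 1.04; others -0.30 to 0.74), BC054086 at -0.28 (others -0.24 to 1.23) and ENSMUST00000103566 at 0.15 (others -0.55 to 1.04). X04699 and BC054086 were below every other tumour, by margins smaller than the spread between the other tumours. In the flanks, Amph, a synaptic membrane-bending protein, was at 0.17 over 24 probes (others -0.02 to 0.38), and Vps41, a subunit of a vesicle-tethering complex, at -0.02 over 17 probes (others -0.44 to 0.29). Stard3nl, an endosomal membrane protein, was at -0.41 over 4 probes and below 0 in all other tumours (-1.33 to -0.11), and AK039681 was at 0.05 (others -0.16 to 0.70).

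No genotype difference from wild type passed the test at any of the loci. Each of 4 genotypes was set against the 7 wild-type tumours at 3 loci, 12 exact two-sided permutation tests whose smallest possible p is 0.00303 for 4 tumours and 0.00833 for 3. The smallest p was 0.167, for gamma in Mth1KO (-0.23 against wild type), and the smallest adjusted p was 0.853. For beta the MutyhKO mean was -0.23 ± 0.38 (SD, n = 3) and the wild-type mean -0.05 ± 0.12 (SD, n = 7), a difference of -0.18 (exact permutation p = 0.342), and without MutyhKO 3 the difference was 0.04. For alpha and delta it was -0.10 (exact permutation p = 0.533), and 0.04 without MutyhKO 3. Both differences thus turned sign without that tumour. The Ogg1KO differences were -0.06 at beta, 0.02 at alpha and delta and -0.17 at gamma, and the Dmt1Tg differences were -0.01, -0.09 and -0.06. Against the 3 WT_plain tumours, which share their scan day, the alpha and delta difference of Ogg1KO turned to -0.17 and that of Mth1KO to -0.11 from 0.08. With 3 tumours against 3 an exact p cannot go below 0.1, so these tests could not pass the threshold.

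No tile of the loci was called in a fit over the whole genome. Mean ratios of 29338 autosomal tiles of 50 kb with at least 3 probes were fitted in 1 limma model of the 5 genotypes, each against wild type, with 32 tiles inside the loci and 53 in the flanks. The model called 0 tiles in any contrast at an adjusted p under 0.05, so the called share was 0% in either direction. At an unadjusted p under 0.05 there were 2385 tiles for MutyhKO, 6 of them among the 32 locus tiles. The corresponding numbers were 1159 and 0 for Dmt1Tg, 2478 and 3 for Ogg1KO, and 2818 and 2 for Mth1KO. The smallest adjusted p of a locus tile was 0.457, for MutyhKO at 54156327 to 54181322 in the alpha and delta locus (0.41, SE 0.12). The MutyhKO median over the 32 locus tiles was -0.12, beside 0.01 over all tiles, and the unadjusted count fell from 6 to 2 without MutyhKO 3. In simulated data of this design 91% of tiles shifted by 1 in all MutyhKO tumours were recovered, and 32% of tiles shifted by 0.5. The simulated tumours were independent, whereas tiles of arrays on the same slide had a consensus correlation of 0.356. A shift in 1 MutyhKO tumour alone was not simulated.

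With only the wild type of the same scan day the number of calls rose steeply. MutyhKO then had 162 tiles lower (0.552% of all) and 1720 higher (5.86%), with 1 locus tile lower and 5 flank tiles higher. Ogg1KO had 5.1% of all tiles higher, with 3 flank tiles, and Mth1KO 4.94%, with 1 locus tile and 3 flank tiles. The locus tile was 41152663 to 41191910 in the Trbv2 to Trbv30 block (-0.79, SE 0.19, limma adjusted p = 0.0228), where the 3 MutyhKO tumours ran from -0.97 to 0.06 and the 3 WT_plain tumours from 0.23 to 0.77. The Mth1KO locus tile was 40961533 to 40984734, which holds the probe of 2210010C04Rik (0.92, SE 0.24, limma adjusted p = 0.0337), where the WT_plain tumours ran from -1.30 to 0.29 and Mth1KO from 0.09 to 0.45. Neither tile was called once array patches were left out, a fit that called 88 tiles for MutyhKO and 23 for Mth1KO. The MutyhKO tile was not called without MutyhKO 3 either. Of the flank tiles, 3 (at Stard3nl and in both alpha and delta flanks) were called higher in MutyhKO and in Ogg1KO, comparisons that share the 3 WT_plain tumours. The WT_plain arrays lay on slide 3, and MutyhKO 1 was the only other array there. The same-day differences of Ogg1KO and Mth1KO thus cannot be told apart from slide, and those of MutyhKO only in part.

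Segment calls in the other tumours were mostly those of the flanks. The downstream flank of the alpha and delta locus was lost over most of its 49 probes in 17 of 20 tumours in the deposited ratios. The lost share of the autosomal probes had a median of 9.43% over the tumours (0 to 24.3%). With the shared profile removed, which takes out what the tumours have in common, this flank was lost in 1 tumour (WT_plain 2). In the deposited ratios the segment reached at least 5 probes into the locus in 4 tumours besides MutyhKO 3. These were Dmt1Tg 1 (8 probes), Dmt1Tg 4 (7), MutyhKO 1 (5) and Mth1KO 1 (7), on arrays where 4.60%, 6.77%, 11.7% and 6.77% of autosomal probes were lost. None of the 4 reached the stretch that was low in MutyhKO 3. WT_plain 3 was gained over all 61 beta probes and both flanks, on an array with 15.2% of autosomal probes gained, and Mth1KO 2 was gained over 91 of 94 alpha and delta probes, with 14.5%. Neither gain remained with the shared profile removed. The gamma locus had 0 probes lost or gained in all 20 tumours.

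MutyhKO 3 and WT_Dmt1 1 lay apart, so no relation was drawn over all 20 tumours, and none passed the test over the other 18. Over these 18, Pearson's r between beta and alpha and delta was 0.10 (permutation p = 0.68, adjusted over 3 pairs 0.68; Spearman's rho 0.03, permutation p = 0.908, adjusted 0.908). It was -0.28 between beta and gamma (permutation p = 0.268, adjusted 0.532; rho -0.26, permutation p = 0.291, adjusted 0.746). Between alpha and delta and gamma it was -0.23 (permutation p = 0.355, adjusted 0.532; rho -0.17, permutation p = 0.498, adjusted 0.746). In the 8 tumours of scan day 1, which include WT_Dmt1 1, Spearman's rho between beta and alpha and delta was 0.90 (exact permutation p = 0.00456, adjusted 0.0137), with Pearson's r at 0.49 (exact permutation p = 0.154, adjusted 0.231). Without the 2 tumours farthest from the median of beta (WT_Dmt1 1 and WT_Dmt1 3), rho was 0.77 (exact permutation p = 0.103) and r was 0.15 (exact permutation p = 0.631). The call was thus lost, but with 6 tumours in place of 8 this cannot show that it rests on those left out. In the same 8 tumours r between beta and gamma was 0.97 (exact permutation p = 0.0369, adjusted 0.111; rho 0.48, exact permutation p = 0.243, adjusted 0.365). In the 11 tumours of scan day 2 without MutyhKO 3, r between beta and alpha and delta was 0.07 (permutation p = 0.843, adjusted 0.843; rho 0.07, permutation p = 0.838, adjusted 0.838). All 3 loci share each array's noise.

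Genes of the T-cell receptor complex, of V(D)J recombination and of T-lineage control were read from the same arrays. Of 32 listed genes 29 had a probe, and Cd3d, Rag1 and Rag2 had none of that name. In MutyhKO 3, 5 of the 29 genes (17.2%) lay in lost segments in the deposited ratios, where 19.8% of all 20325 autosomal gene names did, and 0 lay in gained ones. The median of the 29 was 0.09 beside -0.12 for all names. With the shared profile removed, 0 of the 29 were lost. The 5 were Cd4, the co-receptor of helper T cells (-0.15, lost in 17 of 20 tumours), Lck, the kinase bound to it (-0.29, 16 tumours), Lat, the adaptor that Zap70 phosphorylates (-0.57, 16 tumours), Xrcc6, the Ku70 end-binding subunit (-0.07, 11 tumours), and Nhej1, the ligation factor XLF (-0.24, 17 tumours). All 5 were thus called lost in most tumours of the series in the deposited ratios, not in MutyhKO 3 alone. With the shared profile removed, Cd4, Lat and Xrcc6 were lost in 1 tumour each, and Lck and Nhej1 in 0. That step takes out what the tumours have in common, so it cannot tell a loss common to the tumours from a profile common to the arrays.

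The immunoglobulin loci, which recombine in B cells by the same enzyme, were read for comparison between their neighbouring genes, because no probe carries the symbol Igh, Igk or Igl in the files. They held 331 locus and 248 flank probes. In MutyhKO 3 the heavy-chain locus was at 0.30 against its flanks, the kappa locus at 0.21 and the lambda locus at 0.16, all inside the range of the other 19 tumours (0.05 to 0.62, 0.09 to 0.52 and -0.24 to 0.24). None of the lost probes of that array with the shared profile removed lay there. The heavy-chain and kappa loci were, like alpha and delta, above their flanks in all 20 tumours, with means of 0.28 and 0.26. There, too, WT_plain lay above WT_Dmt1 without overlap. The heavy-chain values were 0.41 to 0.62 against 0.05 to 0.16, and the kappa values 0.34 to 0.52 against 0.09 to 0.15. At lambda the sets overlapped.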

How the data were processed

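Each array held 180880 spots, 174305 of them not controls. The authors' deposited scanner files give processed intensity per channel and a log10 ratio, made with Feature Extraction 10.7.1.1 per the file headers, and positions in mm9. The deposited value table equalled that log10 ratio to within 6.29e-07 on the log2 scale and served as an alternative. Here the log2 ratio of the processed intensities was taken, flagged outlier spots and control spots were dropped, values of repeated probes were averaged, and the autosomal median of each array was subtracted without loess. Arrays carry no read depth, so the number of probes and of arrays limits the precision. The locus mean minus the flank mean per tumour was compared by sign-flip permutation over the tumours (100000 draws) and by exact two-sided permutation between genotypes, with Benjamini-Hochberg adjustment. Tiles of 50 kb with at least 3 probes, split at the locus borders, were fitted with limma 3.58.1 (R 4.3.3). Segments were found by penalised least squares (penalty 40 noise variances, at least 5 probes) in Python 3.11.15 with numpy 2.4.6, and called at -0.2 and 0.2. The scripts were tested on simulated data. A spot lay in an array patch where the median over a window of 21 by 21 spots was more than 0.5 above or below the array median.

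Members, blocks and gene lists were chosen with earlier results of these data known, and the beta blocks follow gene names and order, not values. The named genes were, by rule, every gene or transcript name inside the loci (at most the 10 with the most probes), the 2 names nearest each border in the flanks, and listed T-cell genes called in the tumour with the lowest locus. T-cell gene symbols were matched in the files, with older symbols through RefSeq. Scan day separated the sets with Dmt1 in their name (day 1) from the others (day 2), and 5 slides held the arrays. Slide nearly followed group. Slide 1 held the WT_Dmt1 arrays, slide 2 the Dmt1Tg arrays, and slide 3 the WT_plain arrays with MutyhKO 1. The other MutyhKO arrays and Ogg1KO 1 and 2 were on slide 4, and Ogg1KO 3 and the Mth1KO arrays on slide 5. Dmt1Tg, Ogg1KO and Mth1KO thus shared no slide with wild type, and their differences from it cannot be told apart from slide. Tumours of the same number in different groups did not, as a set, deviate together (46 pairs, correlation of deviations from -0.33 to 0.33, median -0.01, 5 above 0.1). The numbers were therefore not taken as pairs, though this check cannot show that no single tumours are paired. Alternatives were the value table, normexp (offset 50), flanks of 250 kb or of 1 side, the median over probes, probes with kidney signal above background on every array, patches left out, the shared profile removed, scan day, slide, tile and segment settings, and each tumour left out.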

Additional observations from a re-analysis of the deposited data

Results flagged for a closer look

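The beta locus of WT_Dmt1 1 was at 0.22 against its flanks, far from the other tumours of its group, which were at -0.06, -0.10 and -0.10. Its gap to the nearest of them was 0.88 of the range of the 4 WT_Dmt1 tumours, beyond Dixon's 95% value of 0.829. Among the 7 wild-type tumours of both sets the same 0.22 had a gap of 0.80 of the range, beyond 0.568. Chance alone places about 1 in 20 groups beyond this value, and 18 end values in 9 groups were examined. WT_Dmt1 1 had the widest spread between neighbouring probes of all 20 arrays (0.54), and its part in the value was not tested. Groups of 3 tumours, MutyhKO among them, are too small for this rule.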

How the results depend on the processing

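Under the alternatives 248 genotype values kept their direction and 25 turned, and none reached an adjusted p under 0.05. With normexp, beta in Mth1KO (-0.0013) and alpha and delta in Ogg1KO (-0.029) and Mth1KO (-0.0058) turned. With kidney signal above background on every array it was beta in Mth1KO (-0.036) and alpha and delta in Ogg1KO (-0.00064). Beta in Dmt1Tg was 0.016 with the upstream flank alone and 0.0026 with the value table, and beta in Mth1KO was -0.025 with the downstream flank alone, -0.029 with 250 kb flanks and -0.016 with the median over probes. Against the wild type of the same scan day, which equals scan day as a block, alpha and delta turned in Dmt1Tg (0.053), Ogg1KO (-0.17) and Mth1KO (-0.11). Beta in MutyhKO was 0.057 with slide as a block, which is slide 3 alone. With the replicate number as a block it was -0.19 (adjusted p = 0.861, permutation within numbers), and the block changed no call. Leaving out 1 tumour at a time gave, for beta, -0.024 to 0.035 in Dmt1Tg and -0.31 to 0.036 in MutyhKO, for alpha and delta -0.27 to 0.045 in MutyhKO and -0.016 (without WT_Dmt1 3) to 0.071 in Ogg1KO (also below 0, at -0.0066 without WT_Dmt1 2 and -0.0035 without Ogg1KO 2), and for gamma -0.11 to 0.021 in Dmt1Tg. The values above 0 came without MutyhKO 3 for MutyhKO and without WT_Dmt1 1 for Dmt1Tg.

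Over all tumours the gamma value was -0.13 with normexp, -0.062 with kidney signal above background, -0.036 on scan day 2 and, past the threshold, 0.15 on scan day 1. Beta lost its call with 250 kb flanks (-0.086) and on scan day 1 (-0.032). Leaving out 1 tumour moved beta from -0.10 to -0.05, alpha and delta from 0.43 to 0.46 and gamma from 0.01 to 0.05, with no call changed. Between loci, r for beta with alpha and delta was 0.43 over 20 tumours, -0.02 without MutyhKO 3, 0.49 on scan day 1 (rho 0.90, adjusted exact permutation p = 0.0137) and 0.68 on scan day 2 with MutyhKO 3. For beta with gamma it was 0.41, then 0.97 on scan day 1, -0.28 without the 2 tumours farthest from the median (MutyhKO 3 and WT_Dmt1 1), -0.29 without MutyhKO 3 and the 2 next, and -0.35 on scan day 2 without MutyhKO 3. For alpha and delta with gamma it was -0.10, then 0.38 on scan day 1, 0.19 on scan day 2 and 0.15 on scan day 2 without MutyhKO 3.

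A penalty of 80 left 0 tumours and 0 probes lost at beta. The tumours with at least 5 alpha and delta probes lost, 5 as reported, were 1 at a threshold of 0.3, 1 with the shared profile removed, 1 with normexp and 10 at a penalty of 20, and normexp left 0 alpha and delta probes lost in MutyhKO 3. The tiles called by limma, 0 as reported, were 1, 1882, 1585 and 1533 for Dmt1Tg, MutyhKO, Ogg1KO and Mth1KO with scan day as a block, and 6, 88, 5 and 23 with patches also left out. MutyhKO had 239 with that block and without MutyhKO 3, 2 with normexp, and 0 to 2 with 1 tumour left out (1 without WT_plain 2, 2 without MutyhKO 1). Locus tiles called were 1 each for MutyhKO and Mth1KO with scan day as a block. The fits that combine scan day with patches or with a tumour left out, and those without MutyhKO 3 and other tumours, were chosen after seeing the data. The cause of these changes was not tested.

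The 13 gamma probes and the 2 wild-type sets, 1 per scan day, limit what the genotype comparisons can show. The files do not place single V, D and J segments.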
